A study of Mus musculus with 6 samples.

Results

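The cytosolic ribosome is built from a large and a small subunit, and each of its proteins is encoded by a separate nuclear gene, named Rpl for the large and Rps for the small subunit. The genes described here are the 84 protein-coding rows, of 35275 in the deposited table, whose mouse symbol is Rpl or Rps followed by a number (with an optional letter, l or digit), Rplp0 to Rplp2 or Rpsa. Of 90 rows with such a symbol, 5 were left out as not annotated as protein-coding and 1 as a kinase. The 84 genes comprise 52 of the large and 32 of the small subunit, and 7 of them are paralogs of another member (Rpl3l, Rpl7l1, Rpl10l, Rpl22l1, Rpl36al, Rpl39l and Rps27l).

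The libraries were made from RNA of regulatory T (Treg) cells, CD4+ lymphocytes that hold back immune reactions and are defined by the transcription factor Foxp3. All 6 came from male mice aged 6 to 8 weeks that carry Foxp3YFPcre, in which the Foxp3 gene drives a yellow fluorescent protein (YFP) and Cre recombinase, and YFP+ cells were sorted after enrichment of CD4+ cells on a column. The 3 control mice are labelled wild type and carry Foxp3YFPcre alone. The 3 deletion mice are Rcor1fl/flFoxp3YFPcre and lose Rcor1, the gene of the corepressor scaffold CoREST1, in Foxp3+ cells. The exons between the loxP sites are not named in the labels.

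Ribosomal protein mRNAs are among the most abundant messages of a lymphocyte. They belong to the TOP mRNAs, which start with a C followed by a run of pyrimidines (a terminal oligopyrimidine tract) and whose translation is set by the kinase complex mTORC1 through the binding protein Larp1. Resting T cells keep ribosome production low and raise it upon activation, and many ribosomal proteins are made in excess and degraded when they find no place in a ribosome.

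The starts of 8 of these genes are shown because the family is known for its pyrimidine tract. They are 6 of the genes that fell with the smallest p, then Rpl10, which rose, and Rpl11, which did not pass the test. Each sequence runs 5′ to 3′ from 40 bases before the annotated RefSeq start to 20 bases from it onward, on GRCm38.p6, and capitals mark every run of a C followed by at least 4 C or T.
Rps26 (chr10:128626487-128626546, minus strand): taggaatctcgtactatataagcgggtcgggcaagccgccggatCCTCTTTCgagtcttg
Rps27 (chr3:90213629-90213688, minus strand): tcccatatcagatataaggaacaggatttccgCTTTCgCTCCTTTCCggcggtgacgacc
Rps7 (chr12:28635934-28635993, minus strand): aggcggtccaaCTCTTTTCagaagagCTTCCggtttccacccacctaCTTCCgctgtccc
Rpl36a (chrX:134585614-134585673, plus strand): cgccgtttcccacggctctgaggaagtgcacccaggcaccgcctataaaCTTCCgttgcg
Rpl27a (chr7:109519155-109519214, plus strand): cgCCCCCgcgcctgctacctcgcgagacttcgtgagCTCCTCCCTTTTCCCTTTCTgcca
Rps25 (chr9:44407674-44407733, plus strand): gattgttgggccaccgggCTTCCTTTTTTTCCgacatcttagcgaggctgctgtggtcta
Rpl10 (chrX:74270776-74270835, plus strand): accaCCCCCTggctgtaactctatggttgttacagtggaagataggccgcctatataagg
Rpl11 (chr4:136053374-136053433, minus strand): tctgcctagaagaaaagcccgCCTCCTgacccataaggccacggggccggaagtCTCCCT
The longest run was 20 bases in Rpl27a, 14 in Rps25, 9 in Rps27, 8 in Rps26 and Rps7, 6 in Rpl10 and Rpl11 and 5 in Rpl36a. In Rps7, Rps25 and Rpl10 that run lay wholly before the annotated start. Rpl11 held 2 runs of 6 bases, the first wholly before the start and the other at the end of the printed stretch, where it may be cut. These lengths are thus not lengths of TOP tracts. RefSeq promoter windows matched 62 of the 82 tested members. Within 50 bases on either side of the annotated start, 83.9% of these 62 genes held a C followed by at least 7 C or T on the gene strand, against 32.0% of the 27025 genes in the promoter table. Runs before the start count too, so this is not a share of genes with a TOP tract. CTTTCC on the gene strand was found in 32.3% of members and 5.43% of all genes. CCGGAAG on either strand, letters of the core bound by ETS factors, was found in 22.6% and 5.98%, and AAGATGGC on either strand, letters bound by YY1, in 6.45% and 1.68%. The pyrimidine run was present in 31 of 33 members that fell and in 21 of 29 that did not. These matches describe letters and were not used to choose any gene.

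Levels are given as FPKM, the authors' deposited unit, in which fragments are divided by the gene's length and by the library's total. Library totals recovered from the values were 18538581 to 22349455 fragments. The marker genes of Treg cells were present in all libraries, with summed levels of 995.6 to 1168 FPKM in control and 1072 to 1092 FPKM in deletion libraries. Foxp3 was at 92.7, 106.1 and 88.0 FPKM in control libraries 1, 2 and 3 and at 102.9, 99.9 and 106.1 FPKM in deletion libraries 1, 2 and 3. Rcor1 was at 16.1, 16.1 and 15.2 FPKM in control and 12.5, 13.03 and 14.2 FPKM in deletion libraries. Its log2 fold change of -0.24 (SE 0.066) had a limma adjusted p of 0.0562. Exact permutation of the 6 libraries (two-sided) gave p = 0.1, below which this design cannot go. Fragments from exons outside the floxed part count toward that value, so it is a weak check of the labels. Lens and fat markers were found in the control libraries. All 6 lens markers fell and summed to 106.4 to 196.7 FPKM in control and 0.206 to 0.406 FPKM in deletion libraries, with Cryba2, Crybb2 and Crygs at 0 in the latter. The 5 fat markers summed to 45.5 to 56.8 and 0.591 to 1.38 FPKM, with Cfd at 0 in deletion libraries. Among the Treg markers Ikzf2 (Helios) rose by 0.40 on the log2 scale (limma adjusted p = 0.0463), and among the B cell markers Cd22 rose by 1.04 (limma adjusted p = 0.00793). The 6 B cell markers summed to 21.9 to 42.8 and 42.8 to 49.8 FPKM, the 5 plasma cell markers to 190.0 to 491.4 and 483.7 to 586.6, and the 5 erythroid markers to 25.5 to 388.0 and 8.71 to 76.4. The 6 myeloid markers summed to 91.8 to 134.9 and 75.4 to 174.6 FPKM, and the 5 CD8 T and NK cell markers to 21.2 to 28.6 and 21.7 to 25.8 FPKM. The part of these other cell types in the results below was not tested.

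Ribosomal protein messages took a smaller share of the deletion libraries. In control libraries 1, 2 and 3 they held 11.7%, 11.4% and 12.1% of recovered fragments, and in deletion libraries 1, 2 and 3 they held 9.76%, 9.83% and 9.68%. Every deletion library was thus below every control library, and the means were 11.7% ± 0.366 and 9.75% ± 0.0766 (SD, n = 3). The large subunit genes went from 6.69% to 5.51% and the small subunit genes from 5.06% to 4.24%, changes of -17.6% and -16.1% relative to control. Wilson intervals (95%) of a single library were narrow, for example 11.69% to 11.72% in control library 1, and cover counting error only. No test was made of the summed share. In bulk RNA, fewer messages per cell and a different mix of cells cannot be told apart.

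**Figure D1:**
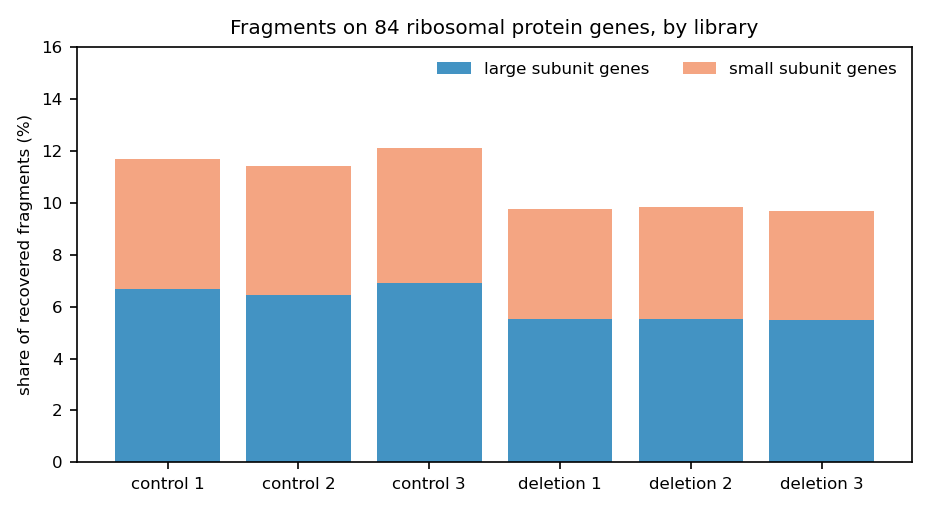
Share of recovered fragments (%, y axis) on the 84 ribosomal protein genes in each library, stacked by large and small subunit. The 3 deletion libraries stand at 9.68% to 9.83% and the 3 control libraries at 11.4% to 12.1%.

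Gene by gene, the messages of most ribosomal proteins were lower without Rcor1. Of 84 members, 82 reached at least 1 FPKM in at least 3 libraries and were tested, and the other two, Rpl3l and Rpl10l, were near or at 0. Among the 82, limma called 46 that fell and 1 that rose, where 3.08% of all 11575 tested genes fell and 8.95% rose. The groups did not overlap in 64 members that were lower in every deletion library (9.79% of all tested genes) and in 3 that were higher (29.3%). The median log2 fold change of the members was -0.25, between -0.90 and 0.54, while that of all tested genes was 0.08. At an unadjusted p under 0.05 there were 58 lower and 2 higher members, and voom called 59 that fell and 0 that rose. Median-ratio scaling, which centres the typical gene, gave 56 members that fell, 0 that rose and a median of -0.34. Quantile normalization left 15 that fell and 4 that rose, with a median of -0.065. That scaling gives all libraries the same set of values, so a gene's value depends on its rank alone. Of the 80 genes with a mean of 1000 FPKM or more, 55 were members. A joint change of such genes can be removed by this scaling, so calls lost under it do not show whether the members fell together. Over all tested genes 356 fell and 1036 rose on FPKM as deposited, and 768 and 657 with voom. These numbers were 688 and 528 with median-ratio scaling and 395 and 473 with quantile normalization. For the unadjusted counts, here, in the small subunit and in the related lists, no share over all tested genes was taken. The count of 46 became 22 and 26 without control library 1 or 3, and 29, 25 and 14 without deletion library 1, 2 or 3, while it was 47 without control library 2.

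Genes of both subunits were among those that fell. In the large subunit 31 of 50 tested genes fell and 1 rose, with a median log2 fold change of -0.27. In the small subunit 15 of 32 fell and 0 rose by limma, with a median of -0.23, and at an unadjusted p under 0.05 there were 21 lower and 0 higher (22 and 0 by voom at the adjusted threshold). The difference between subunits was not tested.

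**Figure D2:**
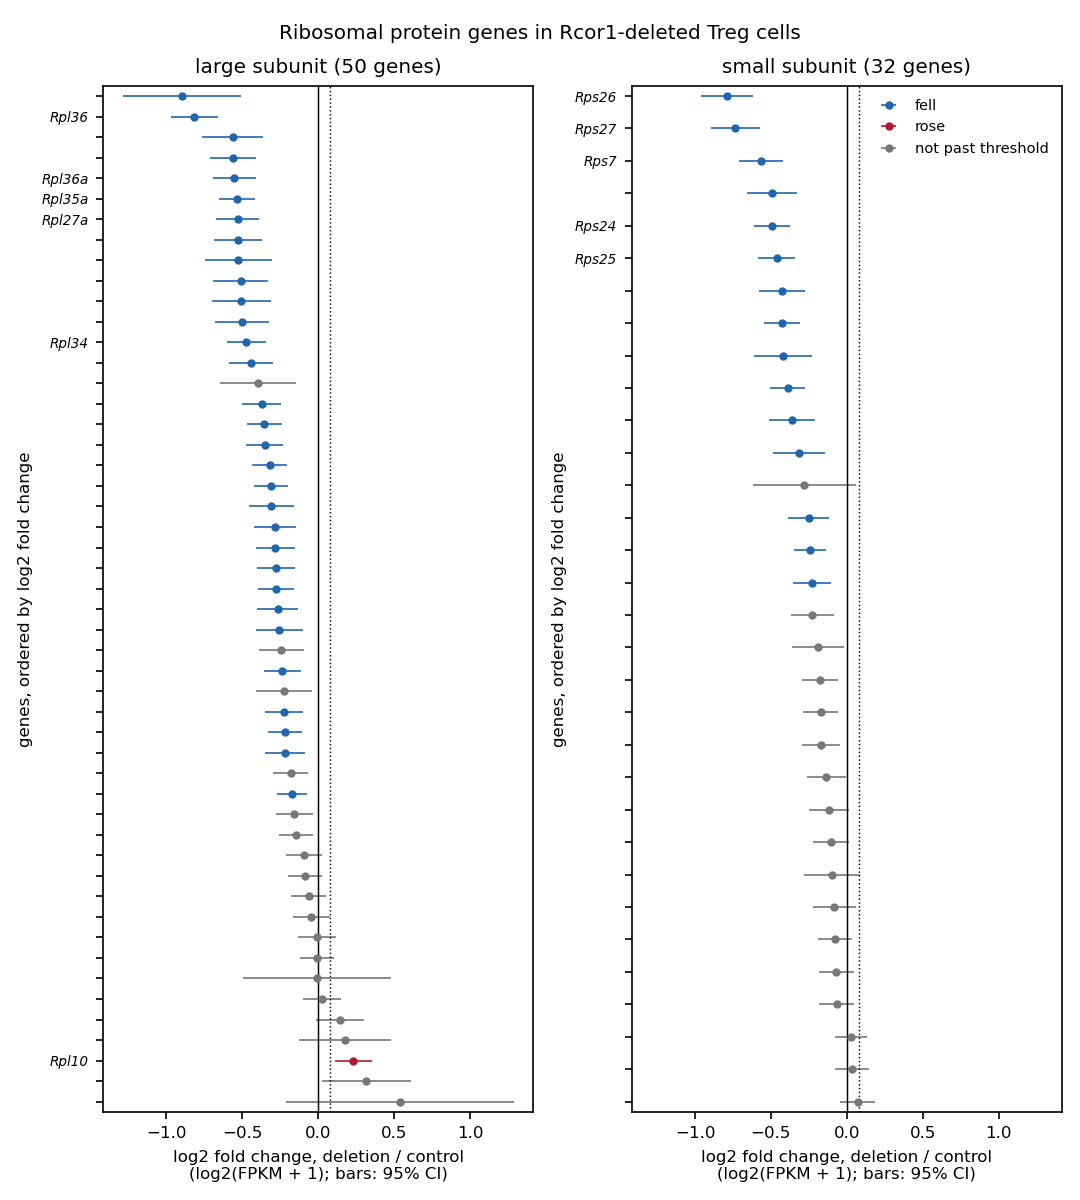
Log2 fold change (deletion minus control means of log2(FPKM + 1), x axis) for the 50 tested large subunit genes and the 32 tested small subunit genes, with 95% confidence intervals, 1 row per gene, coloured by call, and names for the 10 that fell with the smallest p and for Rpl10. The solid line marks 0 and the dotted line the median of all tested genes, 0.08, and most members lie to the left of both, with Rpl10 as the only member called higher.

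Small subunit genes gave 5 of the 10 genes that fell with the smallest p. Rps26, a protein at the mRNA exit channel whose human gene is mutated in Diamond-Blackfan anaemia (DBA), lies on chromosome 10 (128624534 to 128626747, minus strand, GRCm38). Its levels were 2999, 2917 and 3340 FPKM in control libraries 1, 2 and 3 and 1714, 1891 and 1741 FPKM in deletion libraries 1, 2 and 3. No deletion library came near the lowest control library, and the log2 fold change was -0.79 (SE 0.072, limma adjusted p = 0.00217). Rps27, a zinc finger protein of the small subunit on chromosome 3 (90212522 to 90213651, minus strand), had the highest FPKM of all members. It fell from 8785, 8622 and 8294 FPKM to 4846, 5544 and 5084 FPKM, a change of -39.8%. The call of Rps27 was lost with quantile normalization (limma adjusted p = 0.0552), as was that of Rps24 (0.105), while that of Rps26 was kept (0.00971).

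Rps7, another protein tied to human DBA, was at 2172, 2176 and 2268 FPKM in control and 1414, 1591 and 1468 FPKM in deletion libraries. Rps24, also a DBA gene, was within 2401 to 2444 FPKM in control and 1657 to 1772 FPKM in deletion libraries. Rps25, known for its role in initiation at internal ribosome entry sites, was at 1338, 1312 and 1398 and then 985.2, 1008 and 946.7 FPKM. For these 3 genes the changes of the mean were -32.4%, -28.9% and -27.4%, each with groups far apart against their spread (limma adjusted p between 0.00299 and 0.00428).

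The other 5 of the 10 encode large subunit proteins. Rpl36, which had the smallest p of all members, lies on chromosome 17 (56613416 to 56614243, plus strand) and was at 2980.0, 2936 and 3138 FPKM in control and 1621, 1845 and 1683 FPKM in deletion libraries. That is a change of -43.1% (log2 fold change -0.82, SE 0.065, limma adjusted p = 0.00136). Rpl35a, a DBA gene in humans, was at 397.9, 376.1 and 407.9 and then 276.1, 272.2 and 266.7 FPKM, with little spread among the deletion libraries. Rpl36a, an X-linked gene, was at 883.6, 825.0 and 907.3 and then 578.5, 625.2 and 579.1 FPKM. Rpl27a went from 821.9, 906.9 and 901.2 to 583.5, 630.1 and 604.4 FPKM, and Rpl34 from 1639, 1605 and 1730 to 1199, 1226 and 1157 FPKM. All 5 were lower in 3 of 3 deletion libraries and changed by -28.0% to -43.1%. Across the 17 other settings tried, 11 members kept their fall in every case, namely Rpl27a, Rpl28, Rpl34, Rpl35a, Rpl36, Rpl36a, Rpl37, Rps7, Rps15a, Rps25 and Rps26.

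**Figure D3:**
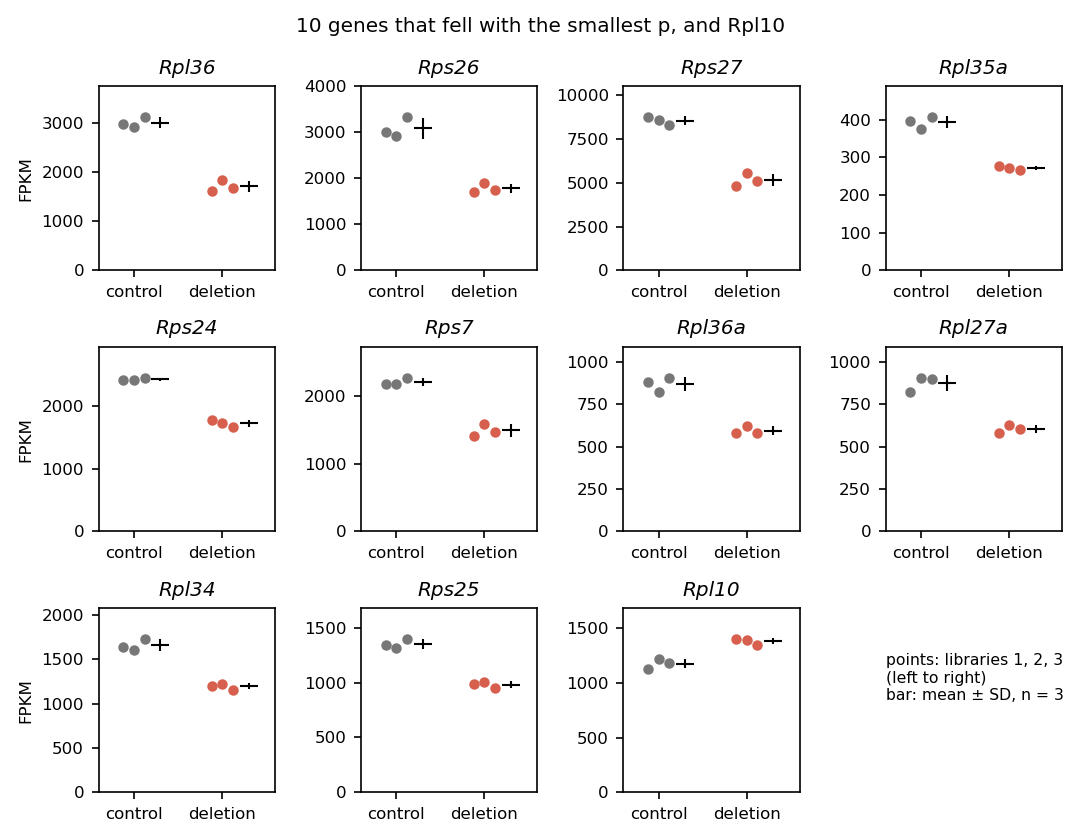
FPKM (y axis, from 0) in each library for the 10 members that fell with the smallest p and for Rpl10. Points are libraries 1, 2 and 3 from left to right and bars the mean ± SD (n = 3), and in all 11 panels the control and deletion libraries do not overlap.

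The stalk of the large subunit, which recruits elongation factors, is formed by Rplp0 and copies of Rplp1 and Rplp2. Rplp1 fell from 4809, 4662 and 5070 FPKM to 3839, 4118 and 3954 FPKM (limma adjusted p = 0.0261), a call lost with quantile normalization, where its log2 fold change was 0.00. Rplp2 fell from 1438, 1381 and 1505 to 1109, 1151 and 1122 FPKM (limma adjusted p = 0.0108, and 0.068 with quantile normalization). Leaving out control library 1 or deletion library 3 ended both calls. Rplp0 was at 2682, 2512 and 3000 FPKM in control and 1934, 1927 and 2387 FPKM in deletion libraries. Its groups did not overlap, but deletion library 3 lay closest to control, and the log2 fold change of -0.39 (SE 0.11) did not pass the threshold (limma adjusted p = 0.0543).

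Several members with known roles fell as well. Rpl39, a very short protein at the exit tunnel, fell from 1313, 1242 and 1316 FPKM to 830.2, 997.2 and 910.1 FPKM. Rpl38, whose loss in the mouse Tail-short mutant disturbs the axial skeleton, fell from 1411, 1394 and 1464 to 866.7, 1123 and 987.2 FPKM, and its deletion libraries were more spread (SD 128) than its control libraries (SD 36.3). Rpl13a, a member of the interferon-gamma-activated translation inhibitor complex in human cells, fell from 3817, 3139 and 3702 to 2558, 2467 and 2440 FPKM. Rps6, the target of S6 kinase, fell from 1391, 1495 and 1471 to 1278, 1176 and 1206 FPKM. Rps4x, an X-linked small subunit gene, fell from 2149, 2137 and 2225 to 1744, 1563 and 1538 FPKM, Rpl7 by 0.28 on the log2 scale and Rps14, a gene lost in the human 5q- syndrome, by 0.50. For these 7 genes the limma adjusted p ranged from 0.00915 (Rps14) to 0.0351 (Rps6). With quantile normalization none of the 7 passed the threshold, and all 7 also failed it without deletion library 3. Leaving out control library 1 ended the calls of Rpl39, Rpl38, Rpl13a, Rps6 and Rpl7.

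Members that fell and are not described one by one covered a wide range. Rpl37a, Rpl28, Rpl37 and Rpl41 had log2 fold changes of -0.56, -0.56, -0.53 and -0.51. Rpl28 had means of 1634 ± 108 FPKM in control and 1108 ± 38.0 FPKM in deletion libraries (SD, n = 3), and Rpl37 of 1113 ± 60.1 and 770.5 ± 46.9 FPKM. Rpl7a, Rps15, Rps29, Rpl21, Rps12 and Rpl26 lay between -0.44 and -0.35. Rps29, a very short zinc-binding protein, went from 2325 ± 5.83 to 1742 ± 185 FPKM, with its spread almost wholly in the deletion libraries. Rpl19, Rps21, Rpl30, Rpl29, Rpl10a, Rpl27, Rps20, Rpl17, Rpl23, Rpl6 and Rpl9 lay between -0.32 and -0.17. All of them were lower in 3 of 3 deletion libraries.

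Members not past the threshold were mostly on the same side. Rpl14, Rpl13, Rps13, Rps23, Rps16, Rpl4, Rps28, Rps3a1, Rpl31 and Rpl12 were lower in 3 of 3 deletion libraries, with log2 fold changes between -0.24 and -0.09 and limma adjusted p between 0.051 (Rpl14) and 0.251 (Rpl12). In Rps2, Rps18, Rps10, Rpl15 and Rpl18 the groups overlapped, with log2 fold changes between -0.10 and 0.02.

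Rpl5 and Rpl11 form with 5S rRNA the particle that can bind Mdm2, the ubiquitin ligase of p53. Rpl5 was at 826.6, 826.0 and 839.6 FPKM in control and 760.6, 654.5 and 674.2 FPKM in deletion libraries, a fall just past the threshold (limma adjusted p = 0.0493). It was called in 7 of 17 other settings, not with quantile normalization (0.649), and of the libraries only the omission of deletion library 1 kept it. Rpl11 was at 1164, 1199 and 1256 and then 1161, 1233 and 1201 FPKM, with overlapping groups (log2 fold change -0.01, 95% interval -0.13 to 0.12, limma adjusted p = 0.925). Rps19, the gene most often mutated in human DBA, was at 487.5, 492.6 and 503.1 and then 490.1, 508.9 and 513.0 FPKM (log2 fold change 0.03, 95% interval -0.08 to 0.13). Rps3, which lies at the mRNA entry channel, and Rpsa, also known as a laminin receptor, had log2 fold changes of 0.04 and -0.08, neither past the threshold. Rps27a, made as a fusion with ubiquitin, was lower in 3 of 3 deletion libraries (log2 fold change -0.23, limma adjusted p = 0.0545).

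Rpl10 was the only member called higher. It encodes a protein that joins the large subunit late, in the cytoplasm, and lies on chromosome X (74270812 to 74273135, plus strand). Its levels were 1131, 1216 and 1184 FPKM in control and 1404, 1390 and 1349 FPKM in deletion libraries, so that every deletion library was above every control library. The log2 fold change was 0.23 (SE 0.051, limma adjusted p = 0.0334). With voom the log2 fold change was 0.14 (limma adjusted p = 0.123) and with median-ratio scaling also 0.14 (limma adjusted p = 0.13), neither past the threshold. Leaving out control library 1 or 3, or any of the deletion libraries, ended it too. Under quantile normalization Rpl8, Rpl32 and Rps9 were called higher beside Rpl10. These 3 genes, named after their values were seen, were at 2123 and 2055, 2562 and 2451, and 1307 and 1372 FPKM in control and deletion means, none past the threshold on FPKM as deposited.

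Among the 5 tested paralogs 1, Rpl36al, fell. Rpl22, without which alpha-beta T cells of the mouse fail to develop, was at 237.6, 240.4 and 244.2 FPKM in control and 219.3, 224.2 and 209.6 FPKM in deletion libraries (limma adjusted p = 0.086). Its paralog Rpl22l1 was at 270.5, 258.4 and 271.8 and then 290.3, 320.7 and 275.3 FPKM (limma adjusted p = 0.182). Neither passed the threshold, but they lay on opposite sides, and the fragments of Rpl22l1 were 26.4% ± 0.761 of those of Rpl22 in control and 32.3% ± 1.54 in deletion libraries (SD, n = 3), with no overlap between the groups. Fragments of Rpl36al stood at 32.3% ± 1.19 of those of Rpl36a in control and 40.5% ± 0.964 in deletion libraries, again without overlap. Rpl36al itself fell from 174.0, 174.0 and 189.5 to 150.7, 156.9 and 152.0 FPKM (limma adjusted p = 0.0407). Of the fits with a library left out, only that without control library 2 kept this call. It was made in 9 of 17 other settings, quantile normalization included (limma adjusted p = 0.0379). The mean of Rpl36al changed by -14.5% and that of Rpl36a by -31.8%. Rps27l, a p53 target, was at 82.7, 71.3 and 99.7 and then 63.3, 81.1 and 63.4 FPKM, lower in the mean but with overlapping groups. Its fragments made 2.23% ± 0.434 and 3.02% ± 0.251 of those of Rps27. These ratios did not overlap, but control library 3 (2.71%) and deletion library 3 (2.81%) lay close. Rpl7l1 was at 42.0 and 35.7 FPKM in the means (limma adjusted p = 0.102), and its ratio to Rpl7 was 6.12% ± 0.409 and 6.34% ± 0.339, with overlap. No test was made of these ratios. Rpl39l was at 0.542 to 2.88 FPKM in control and 1.96 to 3.00 FPKM in deletion libraries, and Rpl3l, typical of muscle, was at or below 0.108 FPKM throughout. Rpl3 was at 1135, 789.9 and 850.6 FPKM in control and 1052, 1035 and 1014 FPKM in deletion libraries, the spread in control coming from library 1. Rpl10l, a testis gene, was at 0 in all 6 libraries.

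Levels should not be ranked across members from FPKM alone. The gene length behind the deposited value was 5130 bases for Rps15a, which has 390 coding bases, but 255 for Rps27, which has 252, so that Rps15a was listed at 292.0 and Rps27 at 8567 FPKM in control. Per kilobase of coding length, the means over libraries were 68503 and 140022 fragments. Rps15a, named here for its length after its values were seen, fell from 302.1, 279.2 and 294.8 FPKM to 225.7, 221.6 and 219.9 FPKM, since the length cancels in a ratio. Of the members that are not paralogs, Rpl24, Rpl23a and Rpl35 stood far below the rest, at 55.9, 2148 and 4452 fragments per kilobase of coding length. Ribosomal protein genes have many near-identical processed copies, 255 rows of this table carry symbols of such pseudogenes, and how the authors' counting treated fragments that match several copies is not recorded in the labels, so that the values of these 3 genes are uncertain. Rpl23a, also named after its values were seen, had the lowest log2 fold change of all members, -0.90 (SE 0.16, limma adjusted p = 0.0201), from 94.3, 135.3 and 103.1 to 62.5, 47.9 and 66.2 FPKM. Rpl35 was at 66.6, 89.3 and 71.7 and then 98.4, 82.9 and 101.7 FPKM, with overlap (limma adjusted p = 0.131), and Rpl24 at 2.51, 2.08 and 1.195 and then 1.45, 1.74 and 2.48 FPKM. The pseudogene rows took 0.0278% ± 0.00388 of fragments in control and 0.0256% ± 0.00151 in deletion libraries, whereas their summed level was 523.4 ± 24.5 and 593.0 ± 36.1 FPKM, with every deletion library above every control library.

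Shorter coding sequences went with lower fold changes. Among members with a longest annotated coding length under 400 bases, 21 of 28 fell and the median log2 fold change was -0.41, against 16 of 29 and -0.23 from 400 to 600 bases, and 9 of 21 and -0.22 from 600 to 900 bases. Across the 75 members with a mean of at least 200 FPKM, coding length and log2 fold change had a Spearman rho of 0.48 and a Pearson r of 0.47 with log2 length, and across all 82 members 0.37 and 0.26. Across the 82, the rho and r were -0.28 and -0.37 for log2 mean FPKM. For the log2 gene length behind the deposited values they were 0.32 and 0.30. These are correlations across genes of the same 6 libraries, which are not independent replicates. Level and length also moved with the change outside the family. In other protein-coding genes the median log2 fold change went from 0.11 at 1500 coding bases or more to -0.03 under 400 bases, and from 0.12 at 1 to 10 FPKM to -0.14 at 400 FPKM or more. In the 57 other coding genes with at least 200 FPKM and under 600 coding bases the median was -0.14 and 19.3% fell. Of all 82 tested ribosomal protein genes, whatever their level and length, 56.1% fell, so the sets are not matched. The part of message length and level in the members' change was not tested.

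**Figure D4:**
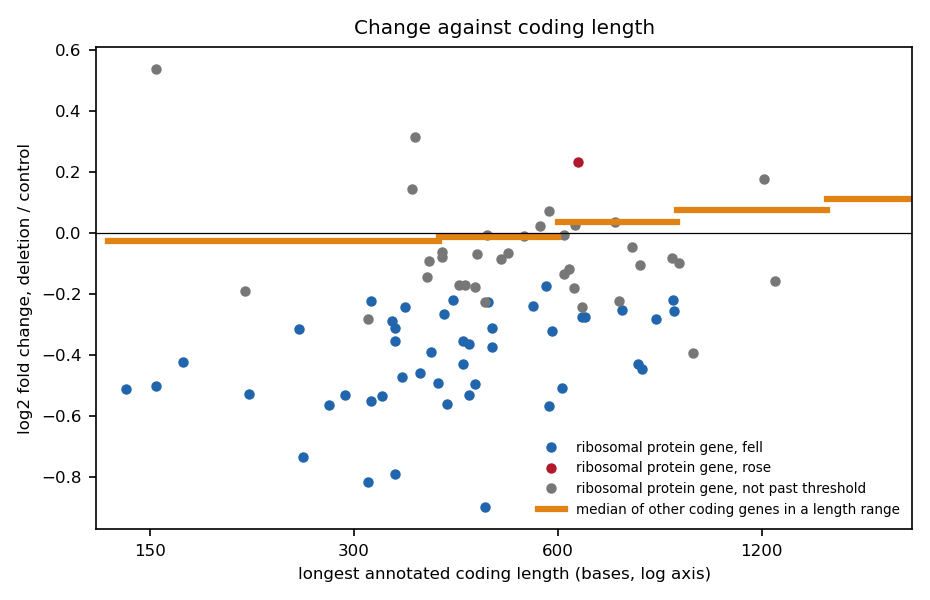
Log2 fold change (y axis) against the longest annotated coding length (bases, log axis) for the 82 tested members, coloured by call. Orange bars give the median of other protein-coding genes in 5 length ranges, from -0.03 under 400 bases to 0.11 at 1500 bases or more (outermost bars end at the plot's limits), and most members lie below the bar of their range.

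**Figure D5:**
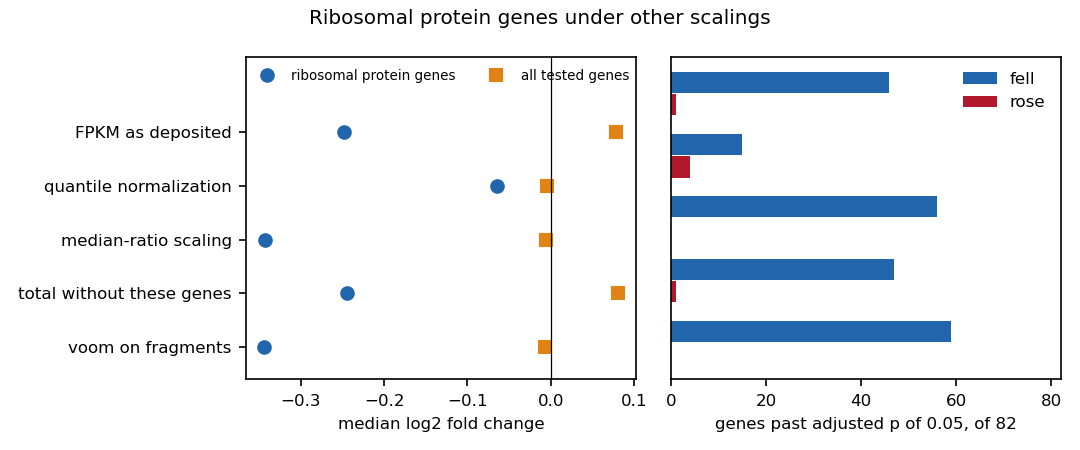
Median log2 fold change (left) of the 82 ribosomal protein genes and of all tested genes, and number of members called (right), on FPKM as deposited and under 4 other scalings. The members' median lies below that of all genes in each case, from -0.34 to -0.065, and the number that fell ranges from 15 to 59.

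Related genes outside the symbol rule were few and gave 1 call. Rack1, a scaffold on the small subunit, fell from 424.0, 424.3 and 450.7 to 387.0, 366.8 and 363.7 FPKM (limma adjusted p = 0.0407). Of the fits with a library left out, only that without control library 2 kept this call. Fau, which encodes the small subunit protein eS30 behind a ubiquitin-like part, was at 1371, 1417 and 1450 and then 1472, 1541 and 1542 FPKM, higher in 3 of 3 deletion libraries but not past the threshold (limma adjusted p = 0.198). Of the 5 genes in that list, which also holds the retrogenes Rps27rt and Rpl37rt, 1 fell and 0 rose by limma, and at an unadjusted p under 0.05 there were 2 lower and 0 higher (1 and 0 by voom). Of all 11575 tested genes 3.08% fell and 8.95% rose by limma, and 768 fell and 657 rose by voom.

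Of 15 other TOP mRNA genes 3 (20%) fell and 0 rose by limma, against 3.08% and 8.95% of all tested genes. Their median log2 fold change was -0.15. At an unadjusted p under 0.05 there were 9 lower and 0 higher (9 and 0 by voom at the adjusted threshold). Eef1b2, a subunit of the exchange factor of elongation factor 1, fell from 431.8, 421.6 and 453.5 to 342.5, 329.2 and 313.0 FPKM (limma adjusted p = 0.00816). Naca, a subunit of the nascent polypeptide-associated complex, fell from 101.6, 94.2 and 105.8 to 73.8, 77.2 and 71.2 FPKM, and Tpt1, the translationally controlled tumour protein, from 3621, 3823 and 3681 to 3273, 2809 and 2984 FPKM. All 3 were lower in 3 of 3 deletion libraries, and the call of Naca was lost without deletion library 3, that of Tpt1 without any library other than deletion library 1. Eef1a1 and Eef2, the main elongation factors, were named after their values were seen. Eef1a1 was at 7365 and 6597 FPKM and Eef2 at 1670.2 and 1715 FPKM in the means, neither past the threshold.

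Of 43 ribosome assembly factors, which process rRNA and mount the proteins on it, 1 (2.33%) fell and 0 rose by limma. Over all tested genes these shares were 3.08% and 8.95%. The median log2 fold change of the assembly factors was -0.02, with 7 lower and 4 higher at an unadjusted p under 0.05 and 7 and 0 by voom. The gene that fell was Pes1, a large subunit assembly factor, from 37.9, 33.2 and 40.7 to 28.4, 27.0 and 27.2 FPKM (limma adjusted p = 0.0222). Of the fits with a library left out, only that without control library 2 kept this call. Of 15 genes of the RNA polymerase I machinery, which makes rRNA, Taf1c rose from 11.02, 10.6 and 10.9 to 14.4, 13.3 and 14.5 FPKM (limma adjusted p = 0.0181, lost without control library 1 or deletion library 1 or 3) and 0 fell, with 3 lower and 3 higher at an unadjusted p under 0.05 and 2 that fell and 1 that rose by voom. Among 6 tested chaperones of ribosomal proteins Rps19bp1, which binds Rps19, fell from 27.3, 30.3 and 36.2 to 21.3, 20.8 and 21.1 FPKM (limma adjusted p = 0.0201, lost without any of the deletion libraries) and 0 rose, with 2 lower and 0 higher at an unadjusted p under 0.05 and 2 and 0 by voom.

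Among 15 tested genes of mTORC1 and TOP mRNA regulation 0 fell and 0 rose by limma, with 0 lower and 3 higher at an unadjusted p under 0.05 and 0 by voom. Over all tested genes 3.08% fell and 8.95% rose by limma. Rps6kb2, an S6 kinase, was at 10.8, 14.2 and 11.7 and then 14.5, 15.4 and 15.7 FPKM (limma adjusted p = 0.0914), and Larp4, an mRNA-binding protein, at 13.6, 12.9 and 12.6 and then 15.3, 14.02 and 14.5 FPKM (0.132). Of 10 genes of ribosome rescue and quality control 0 fell and 0 rose by limma, with 0 lower and 2 higher at an unadjusted p under 0.05 and 0 by voom. Gcn1l1, which senses collided ribosomes, was at 23.3 and 27.9 FPKM (limma adjusted p = 0.0547) and Zfp598, a ubiquitin ligase of collided ribosomes, at 31.9 and 37.1 FPKM (limma adjusted p = 0.132).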

How the data were processed

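The authors deposited 1 table of FPKM values for 35275 Ensembl gene identifiers, with 1 column for each of the 6 libraries. STAR and the mm10 build appear, per the submitters' processing notes, without a counting tool, annotation release, filter or batch, each not given in the sources used here. Replicates are independent biological replicates per the labels' design text. Symbols, positions and coding lengths came from GENCODE release M21 (34490 identifiers matched), and promoter sequences from RefSeq on GRCm38.p6.

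An FPKM value times gene length and library total is a whole number of fragments. With a tolerance of 0.01 fragments this held for 15336 of 21898 genes above 0 with the longest annotated transcript, and for 6562 with a length solved from the values, among them 35 members. Recovered fragments gave the shares, the ratios and the voom alternative.

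The main test was limma (version 3.58.1, R 4.3.3) with an expression trend on log2(FPKM + 1), for the 11575 genes that reached 1 FPKM in 3 or more libraries. P-values are two-sided, with Benjamini-Hochberg adjustment across these genes, a threshold of 0.05 and no fold limit. Fold changes are deletion over control and understate low genes. The procedure was tested on simulated data. It recovered 90 of 99 genes changed 1.5-fold and 95 of 97 changed 2-fold, and 15 of 200 calls were false. Changed genes were picked at random in both directions, so a joint change of abundant genes was not simulated. The same dispersion was used for all genes. The members' median log2 fold change of -0.25 was smaller than either simulated size, so recovery of such changes was not measured. Values after ± are SD over 3 libraries.

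Named are the 10 members that fell with the smallest p and no overlap, members that rose, the 3 highest and lowest, a panel of genes with known roles, and up to 4 genes per related list. Rps4l of that panel is annotated as a pseudogene and was left out, and some genes of the lists are not reported here by name. Members, lists and rule were chosen with earlier results of these data known. Alternatives were other pseudocounts, filters, scalings and variance models, voom, a replicate block and leaving out each library.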

Additional observations from a re-analysis of the deposited data

How the results depend on the processing

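The 46 members that fell became 18 with no filter on low values and 15 with quantile normalization, and 14 to 47 with each library left out in turn, while the other settings except the replicate block kept the count within 1.5 times, up to 59 with voom. The count that rose (1) was 0 with no filter, median-ratio scaling, no trend and voom, 4 with quantile normalization and 0 to 2 with a library left out. The members' median log2 fold change of -0.25 moved to -0.065 with quantile normalization and to -0.34 with median-ratio scaling and with voom. In the related lists, 6 genes that fell became 19 with median-ratio scaling, 12 with array weights, 21 with voom and 1 to 11 with a library left out. The 1 that rose became 2 with quantile normalization or totals without the members, 0 with median-ratio scaling, 6 with array weights and 0 to 5 with a library left out. Rcor1 passed the threshold with voom (-0.35), array weights (-0.25), median-ratio scaling and quantile normalization (both -0.33) and when only genes of at least 5 FPKM were tested (-0.24). The fall in share, -1.99 percentage points of fragments, was -4.07 as a share of summed FPKM. With quantile normalization 32 of 82 members were higher, against 9 on FPKM as deposited, and Rpl8 and Rpl32 turned sign and were called higher. Among members named by the rule, the sign turned in these settings, where none of them passed the threshold: Rpl24 with a pseudocount of 0.1 (0.0026) and with libraries left out (-0.20 to 0.14), Rpl11 with quantile normalization (0.18), array weights (0.015) and libraries left out (-0.034 to 0.021), Rps19 (-0.068) and Rps3 (-0.060) with median-ratio scaling and voom, and Rpsa (0.11) and Rps27a (0.011) with quantile normalization. Quantile normalization can remove a joint change of the most abundant genes, most of which were members. The cause of these shifts was not tested.

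Labels share replicate numbers between groups, but nothing ties same-numbered libraries, whose deviations correlated at 0.211, -0.135 and -0.162. With the replicate block 17 members fell and 0 rose, and in the related lists 0 fell and 0 rose. With 3 libraries a group, changes of small size cannot be told from the spread, and the values of Rpl24, Rpl39l and Rpl3l rest on 0 to 54 fragments per library.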
